A study of Mus musculus with 12 samples.

Results

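The adventitia is the outer coat of an artery, and fibroblasts are its main resident cells. They lay down and organise collagen fibrils, secrete proteins that bind growth factors, and respond to platelet-derived growth factors through Pdgfra and Pdgfrb. In atherosclerosis the adventitia surrounds the diseased wall and borders the perivascular fat, and several of the genes used here (Pdgfrb, Thy1, Aspn, Cd34) are also used by other cells of the artery. A list of 35 genes of adventitial fibroblasts was taken by symbol from the table of 25284 genes. All 35 were present and all 35 passed the filter on low counts, which kept 15857 genes.

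RNA of the thoracic aorta was sequenced in 12 male ApoE-/- mice, which lack apolipoprotein E in every cell and develop atherosclerosis. All were fed a high fat diet, carried osmotic minipumps under the skin for 8 weeks, replaced partway, and were 18 weeks old at the end. The pumps of 6 mice (A1 to A6) released AZ6983, an agonist of the alpha 7 nicotinic acetylcholine receptor, at 50 µmol per kg per day, and those of the 6 controls (C1 to C6) released vehicle. The comparison asks whether the agonist altered transcript levels in the aorta. Each mouse gave 1 library, so p-values weigh the difference between the groups against the spread between mice. Whether mice shared a litter or cage is not given in the sources used here.

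Counts on genes were 25641329 to 29131708 in controls and 23810036 to 35864666 with AZ6983. Reads that the counting assigned to no gene were 8.02% to 12.7% of the table (the no-gene share) in controls and 11.2% to 14.9% in AZ6983 mice. The mean of the no-gene share was 10.1% in controls and 12.8% in AZ6983 mice. Fits with this share as a covariate therefore cannot fully separate it from the treatment. A pair of AZ6983 libraries stood apart. In A5 the 10 genes with the most counts held 30.2% of gene counts, against 16.0% to 22.1% in the other mice. In A4 markers of T cells and thymocytes held 0.101% of gene counts, against at most 0.00384% elsewhere. The column of A1 carries 3 of the 4 digits of that mouse's number. Members whose unadjusted p crosses 0.05 without A4 or A5 are named beside their values.

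No adventitial fibroblast gene passed the test for a difference between the groups, and most log2 fold changes were small beside the spread between mice. At a false discovery rate of 10%, 0 of the 35 passed (edgeR quasi-likelihood test, Benjamini-Hochberg adjustment), as did 0.0% of all genes tested. DESeq2 passed 0 of the 34 that it gave an adjusted p, beside 0.523% of all genes, and limma-voom passed 0 of 35. Adjusted p-values of the 35 in edgeR lay between 0.466 and 0.997. At an unadjusted p under 0.05, 2 were higher in AZ6983 mice (Thy1 and Podn, 5.71%) and 1 was lower (Dpep1, 2.86%), where 7.38% of all genes tested were higher and 2.81% lower (10.2% in either direction). These shares lie near or below the background.

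Log2 fold changes of AZ6983 against control ran from -0.29 (Lum) to 0.83 (Thy1). They were above 0 for 23 genes and below 0 for 12, where 52.4% of all genes tested were above 0. The median was 0.04, beside 0.01 over all genes tested. Standard errors were 0.0637 to 0.375. Control and AZ6983 values overlapped for each of the 35 genes, whereas 0.41% of all genes tested showed no overlap. The spread between mice, as a coefficient of variation, had a median over the 35 genes of 12.8% in controls and 17.1% in AZ6983 mice.

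**Figure D1:**
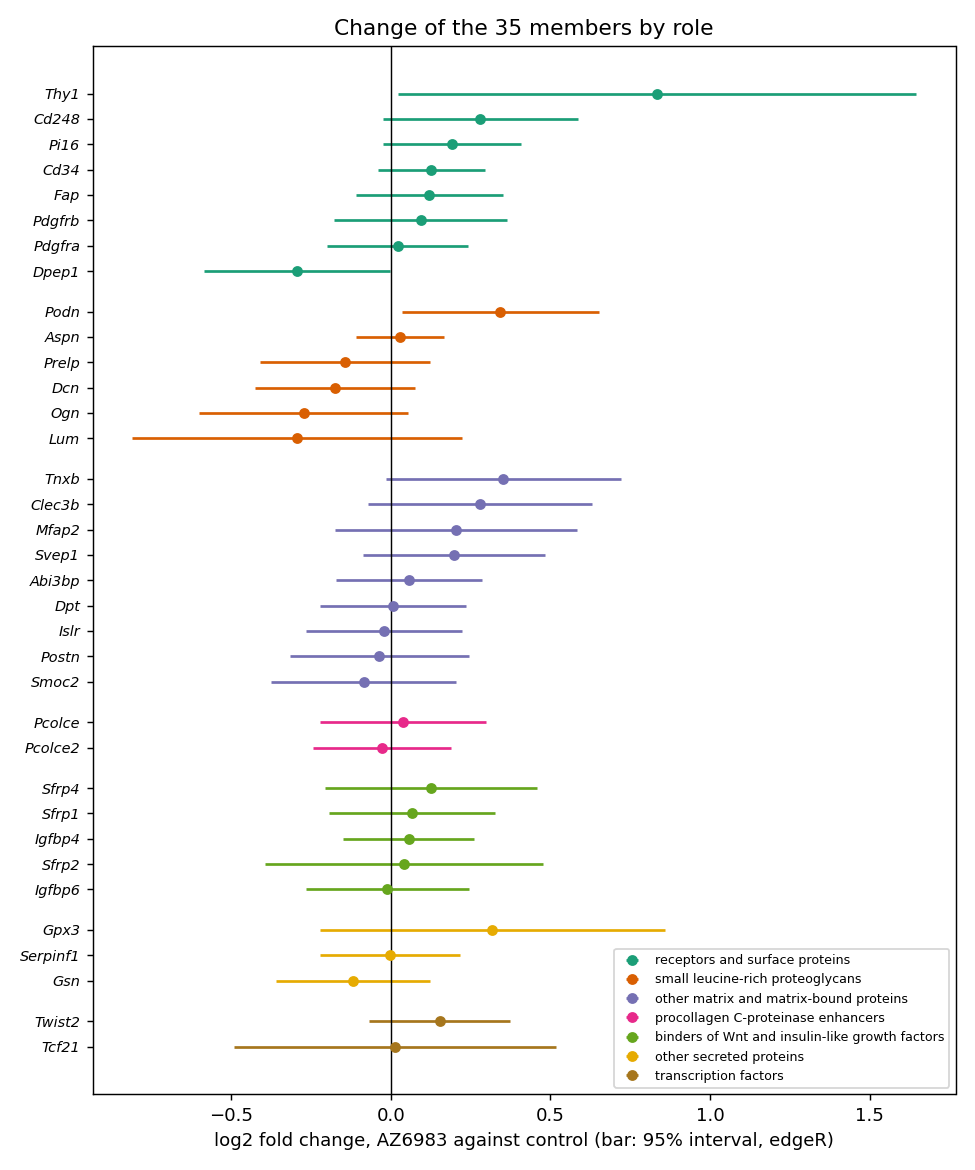
Log2 fold change of AZ6983 against control for each of the 35 genes, grouped by role, with the 95% interval of edgeR as a bar (6 mice per group). The intervals of Thy1 and Podn lie above 0, that of Dpep1 lies just below 0, and the other 32 cross 0.

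Of the 8 receptors and surface proteins, 7 had a log2 fold change above 0, with a median of 0.12. Pdgfra and Pdgfrb, the receptors for platelet-derived growth factors, were at similar levels in both groups. Levels are given as CPM, the counts scaled to a common library size, by edgeR's TMM method. Pdgfra, the receptor most used to mark fibroblasts, was at 157, 169 and 213 CPM in controls (lowest, median and highest) and at 147, 177 and 223 in AZ6983 mice. The groups overlapped almost fully, with A4 lowest and A1 highest of the 12 mice. Its log2 fold change was 0.02 with a 95% interval of -0.20 to 0.24 (adjusted p = 0.956 in edgeR).

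Pdgfrb, which pericytes and smooth muscle cells use as well, was at 161, 169 and 255 CPM in controls and at 165, 184 and 232 in AZ6983 mice. C6 stood apart at the top of the controls, whose other 5 mice reached at most 186. The log2 fold change was 0.09 with a 95% interval of -0.18 to 0.36. It was 0.21 without C6 (unadjusted p = 0.0476 in edgeR) and 0.03 without A2. Cd34, a surface sialomucin of adventitial stromal cells and of endothelium, was at 215, 223 and 246 CPM in controls and at 201, 246 and 281 in AZ6983 mice. A5 was the lowest of all 12 mice and A1 the highest. Its log2 fold change was 0.13 ± 0.0773 (SE, adjusted p = 0.563 in edgeR), and 0.16 without A5 (unadjusted p = 0.0218).

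Thy1, a GPI-anchored protein of fibroblasts and a classical antigen of T cells and thymocytes, had the largest log2 fold change of the list. It was at 12.7, 17.5 and 21.8 CPM in controls and at 16.8, 20.3 and 82.9 in AZ6983 mice. A single mouse, A4, held the highest value, and the other 5 AZ6983 mice lay at 25.2 CPM or below. The log2 fold change was 0.83 ± 0.375 (SE) with an unadjusted p of 0.0446 and an adjusted p of 0.487 in edgeR. Without A4 it was 0.24, with an unadjusted p of 0.151. With the no-gene share as a covariate it was 0.78, with an unadjusted p of 0.187. A4 also held most of the counts of the T cell and thymocyte markers. These summed to 0.000280% to 0.00273% of gene counts in controls and 0.000694% to 0.101% in AZ6983 mice. Of the 8 markers 6 could be tested. At an unadjusted p under 0.05 in edgeR 6 were higher, beside 7.38% of all genes tested, and 0 passed a false discovery rate of 10%. In A4 Cd3d was at 18.8 CPM, against at most 0.969 in the other AZ6983 mice and 1.42 in controls. No fit of these markers without A4 is given here. Ptcra, the pre-T cell receptor chain, was at 2.02 CPM in A4 and at most 0.119 CPM elsewhere, with 0 counts in some mice of both groups. Rag1 was at 577 CPM in A4 and at most 21.3 CPM elsewhere. Fibroblast Thy1 and T cell Thy1 cannot be told apart in these libraries.

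Pi16, a marker of stromal progenitors of the adventitia, was at 218, 258 and 298 CPM in controls and at 240.4, 298 and 348 in AZ6983 mice. 3 of the 6 AZ6983 mice lay above every control, and A2 was the highest. The log2 fold change was 0.19 ± 0.1003 (SE, adjusted p = 0.526 in edgeR), and 0.22 without A5 (unadjusted p = 0.0319). Cd248, the stromal protein endosialin, was at 19.5, 22.8 and 35.6 CPM in controls and at 27.1, 29.5 and 38.7 in AZ6983 mice. A2 stood apart from the other 5 AZ6983 mice, which lay at 27.1 to 30.4. Its log2 fold change was 0.28 with a 95% interval of -0.02 to 0.58 (adjusted p = 0.511 in edgeR), and 0.02 once the no-gene share of reads entered the model.

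Dpep1, a membrane dipeptidase, was at 124, 161 and 182 CPM in controls and at 107, 114 and 164 in AZ6983 mice. 4 of the 6 AZ6983 mice (A2, A4, A5 and A6) lay below every control, while A1 and A3 lay within the range of the controls. The log2 fold change was -0.29 ± 0.135 (SE) with an unadjusted p of 0.0493 and an adjusted p of 0.488 in edgeR. Once the no-gene share of reads entered the model it was 0.03 (unadjusted p = 0.825). The unadjusted p was 0.0895 without A4 and 0.0818 without A5. Fap, a serine protease of activated fibroblasts, was at 9.15 to 12.6 CPM in controls and 9.47 to 14.1 with AZ6983, for a log2 fold change of 0.12.

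**Figure D2:**
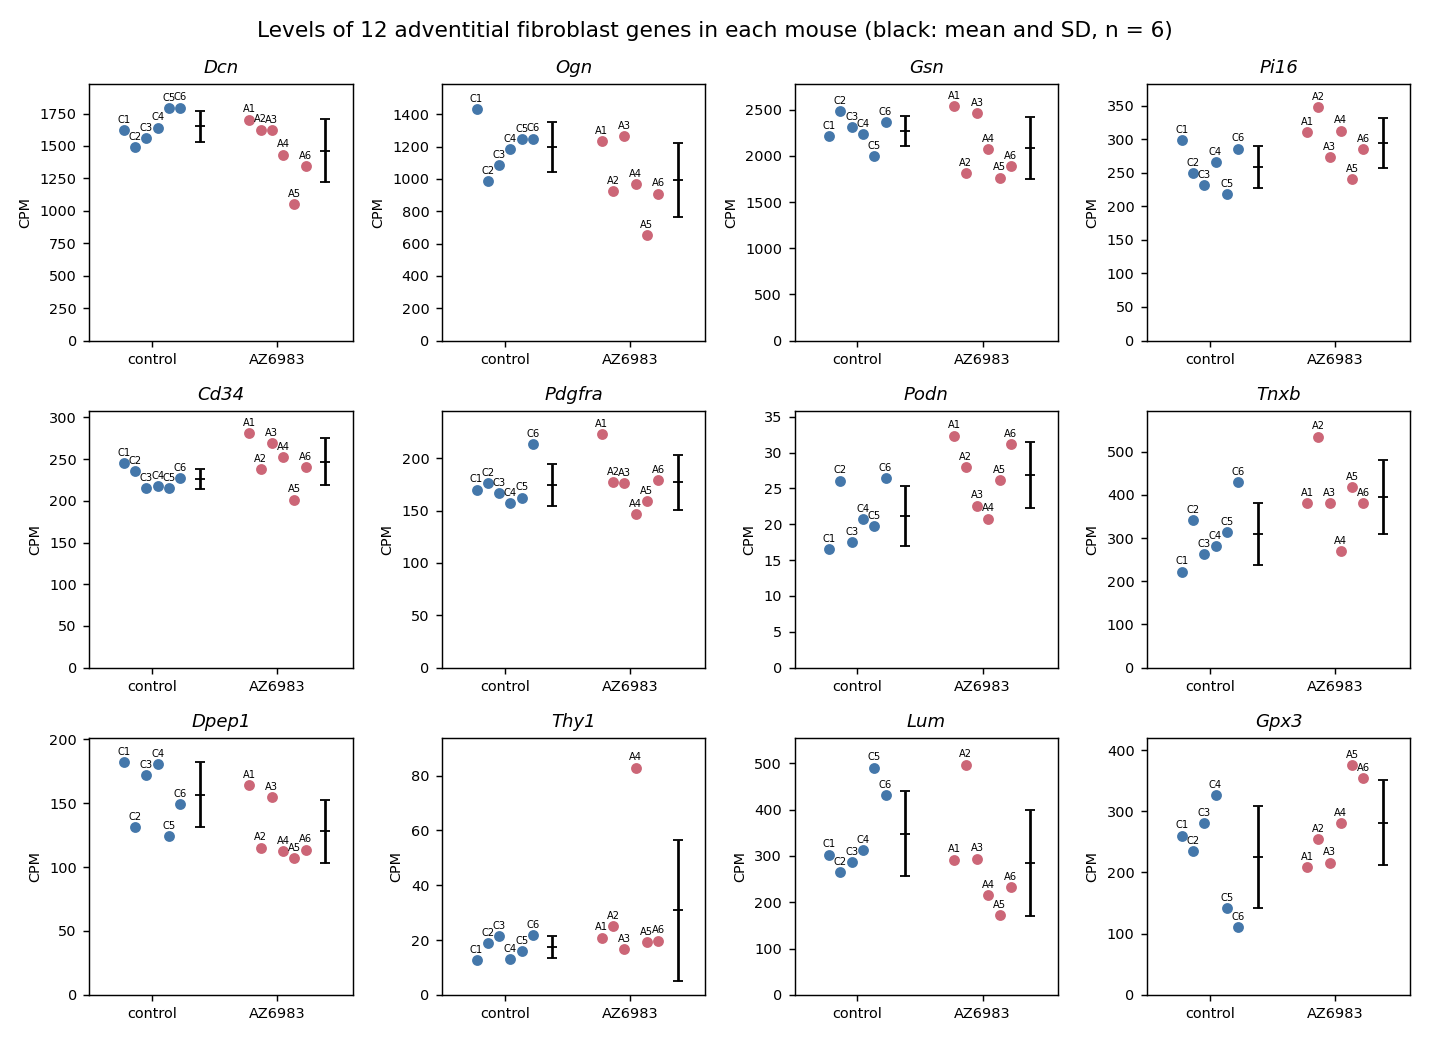
CPM of 12 genes in each mouse (blue, control; red, AZ6983; axes start at 0), with the mean and SD of each group in black (n = 6). The groups overlap in every panel, A4 stands alone for Thy1 at 82.9 CPM, and A5 is the lowest of the 12 mice for Dcn, Ogn, Lum, Gsn, Cd34 and Dpep1.

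Small leucine-rich proteoglycans coat collagen fibrils and limit their width. The list holds 6, of which 4 (Dcn, Lum, Ogn and Prelp) had a log2 fold change below 0 and 2 (Aspn and Podn) above 0, with a median of -0.16. Podn had an unadjusted p under 0.05. These genes include some of the most abundant of the list per length, a level given as the mean CPM of the 12 mice per kilobase of exon. Ogn was at 427 CPM per kilobase and Dcn at 267, against 5.63 for Podn. Aspn and Ogn lie 40480 bases apart on chromosome 13, and Dcn and Lum 46984 bases apart on chromosome 10.

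The 250 bases before the start of Aspn, Ogn and Podn are shown because these genes of 1 family had the smallest standard error of the list, the second highest level per length and the smallest p. They are from RefSeq on GRCm38.p6, read 5′ to 3′ on the gene's strand, with each E-box (CANNTG, the letters bound by basic helix-loop-helix factors such as Tcf21 and Twist2, the same on both strands) in capitals.
Aspn: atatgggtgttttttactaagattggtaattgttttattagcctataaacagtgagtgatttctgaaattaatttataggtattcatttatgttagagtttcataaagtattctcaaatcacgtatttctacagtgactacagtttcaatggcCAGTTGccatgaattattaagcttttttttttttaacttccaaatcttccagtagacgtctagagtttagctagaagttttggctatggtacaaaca
Ogn: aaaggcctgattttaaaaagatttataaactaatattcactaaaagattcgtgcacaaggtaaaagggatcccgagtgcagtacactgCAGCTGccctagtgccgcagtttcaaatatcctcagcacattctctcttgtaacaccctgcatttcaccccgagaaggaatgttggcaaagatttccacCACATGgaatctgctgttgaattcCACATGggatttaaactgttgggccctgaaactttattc
Podn: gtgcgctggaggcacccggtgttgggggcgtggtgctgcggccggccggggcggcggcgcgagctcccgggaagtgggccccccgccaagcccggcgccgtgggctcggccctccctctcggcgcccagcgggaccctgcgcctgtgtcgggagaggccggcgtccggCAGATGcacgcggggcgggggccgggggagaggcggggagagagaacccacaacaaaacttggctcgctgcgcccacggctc
The window of Aspn (chr13:49544193-49544442, plus strand) has 30% G and C and 1 E-box, that of Ogn (chr13:49607765-49608014, plus strand) has 42% and 3, and that of Podn (chr4:108031955-108032204, minus strand) has 78% and 1. RefSeq gives Podn another start, whose window (chr4:108030987-108031236) has 64% and 3 E-boxes. The window of Ogn ends before the start of this gene in GENCODE (49608046), which gave the other positions here. Of the 29 windows found for 24 of the 35 genes, 17 hold an E-box (58.6%), against 66.2% of all 32851 windows of this length. TATAAA on either strand is in 6 of the 29 (20.7%), Aspn and Ogn among them, and in 12.4% of all. A match gives letters in a window and not a bound site.

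Dcn, decorin, was at 1494, 1632 and 1797 CPM in controls and at 1049, 1528 and 1703 in AZ6983 mice. A4, A5 and A6 lay below every control, and A5 was the lowest. Its log2 fold change was -0.17 ± 0.116 (SE, adjusted p = 0.587 in edgeR), and -0.11 without A5. Ogn, osteoglycin, was at 985, 1217 and 1433 CPM in controls and at 650.2, 947 and 1265 in AZ6983 mice. 4 of the 6 AZ6983 mice were below every control, while A1 and A3 lay within the range of the controls. AZ6983 against control gave a log2 fold change of -0.27 with a 95% interval of -0.60 to 0.05 (adjusted p = 0.538 in edgeR), and -0.00013 with the no-gene share as a covariate.

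Lum, lumican, was the most variable of the family, at 264, 308 and 491 CPM in controls and at 172, 263 and 497 in AZ6983 mice. C5, C6 and A2 held the high values and A4, A5 and A6 the low ones. AZ6983 against control gave a log2 fold change of -0.29 ± 0.239 (SE, adjusted p = 0.653 in edgeR). It was -0.54 without A2, the AZ6983 mouse with the high value, and -0.60 with the no-gene share as a covariate (unadjusted p = 0.114). Aspn, asporin, had the smallest standard error of the list (0.0637), and was at 95.6, 98.8 and 118 CPM in controls and at 95.6, 104 and 113 in AZ6983 mice. C1 was the highest mouse and stood apart from the other 5 controls, and the log2 fold change was 0.03 with a 95% interval of -0.11 to 0.17.

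Podn, podocan, was at 16.6, 20.2 and 26.4 CPM in controls and at 20.8, 27.1 and 32.4 in AZ6983 mice. A1, A2 and A6 lay above every control, while the remaining AZ6983 mice lay within the range of the controls. AZ6983 against control gave a log2 fold change of 0.34 ± 0.143 (SE) with an unadjusted p of 0.0322 and an adjusted p of 0.466 in edgeR, and 0.12 (unadjusted p = 0.537) once the no-gene share of reads entered the model. Without A5 the unadjusted p was 0.0503. Prelp, which links matrix to basement membrane, was at 189 to 266 CPM in controls and 154 to 251 with AZ6983, for a log2 fold change of -0.14.

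The 9 other matrix and matrix-bound proteins had a median log2 fold change of 0.06, with 6 above 0 and 3 below. None of the 9 had an unadjusted p under 0.05 in edgeR. Dpt, dermatopontin, which binds decorin, was at 217, 242 and 274 CPM in controls and at 182, 253 and 291 in AZ6983 mice. The AZ6983 mice spread on both sides of the controls, and the log2 fold change was 0.01 with a 95% interval of -0.22 to 0.23. Postn, periostin, a protein of remodelling matrix, was at 1110.0, 1337 and 1465 CPM in controls and at 861, 1319 and 1605 in AZ6983 mice. A5 was again the lowest mouse and A2 the highest, with a log2 fold change of -0.04 (adjusted p = 0.935 in edgeR).

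Tnxb, tenascin X, which spaces collagen fibrils, was at 223, 298 and 430.4 CPM in controls and at 269, 381 and 535 in AZ6983 mice. C6 was the highest control and 5 of the 6 AZ6983 mice lay above the median of the controls, but only A2 lay above C6. AZ6983 against control gave a log2 fold change of 0.35 ± 0.1704 (SE, unadjusted p = 0.0597 and adjusted p = 0.503 in edgeR). Without A4 the unadjusted p was 0.014, and once the no-gene share of reads entered the model the log2 fold change was -0.02. Clec3b, tetranectin, a plasminogen-binding protein, was at 29.3, 34.4 and 49.9 CPM in controls and at 28.3, 43.2 and 55.7 in AZ6983 mice. C2 stood apart from the other 5 controls, which reached 35.4. In the edgeR fit the log2 fold change was 0.28 ± 0.162 (SE, adjusted p = 0.548 in edgeR). It was 0.38 without A4 (unadjusted p = 0.0161) and -0.01 with the no-gene share as a covariate.

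Smoc2, a calcium-binding matricellular protein, was at 121, 139 and 187 CPM in controls and at 107, 130.2 and 179 in AZ6983 mice. Islr, a leucine-rich repeat protein of stromal cells, was at 93.0, 103 and 136 CPM in controls and at 88.0, 105 and 126 in AZ6983 mice. C6 was the highest mouse for both genes. Their log2 fold changes were -0.09 for Smoc2 and -0.02 for Islr. The other members of this role, Mfap2 of the microfibrils, Abi3bp and the adhesion protein Svep1, had log2 fold changes of 0.21, 0.06 and 0.20, with adjusted p-values of 0.669, 0.862 and 0.588 in edgeR. Without A4, Svep1 was at 0.28 (unadjusted p = 0.0224).

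Pcolce and Pcolce2, which speed the cleavage of procollagen, had log2 fold changes of 0.04 and -0.03. Binders of Wnt proteins (Sfrp1, Sfrp2 and Sfrp4) and of insulin-like growth factors (Igfbp4 and Igfbp6) had a median of 0.06 and a range of -0.01 to 0.13. Sfrp2 varied most of these, from 95.5 to 204 CPM in controls and from 108 to 207 in AZ6983 mice. Serpinf1, the pigment epithelium-derived factor, had a median of 212 CPM in controls and 209.7 in AZ6983 mice.

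Gsn, the actin-severing protein gelsolin, whose secreted form circulates in plasma, had the highest level of the list, 690.2 CPM per kilobase. It was at 2001, 2274 and 2481 CPM in controls and at 1763, 1981 and 2537 in AZ6983 mice. A1 was the highest of the 12 mice, and A2, A5 and A6 lay below every control. In the edgeR fit the log2 fold change was -0.12 ± 0.112 (SE, adjusted p = 0.702 in edgeR). Gpx3, the secreted glutathione peroxidase, was at 111, 248 and 326 CPM in controls and at 209, 267 and 376 in AZ6983 mice. Its order of mice was unlike that of the rest of the list, since C6 was the lowest and A5 the highest. In the edgeR fit the log2 fold change was 0.32 ± 0.2497 (SE, adjusted p = 0.64 in edgeR), and 0.18 without C6.

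Tcf21, a transcription factor of the fibroblast lineage, was the scarcest of the list, at 14 to 39 counts per mouse and 0.383 CPM per kilobase. It was at 0.662, 0.847 and 1.15 CPM in controls and at 0.549, 0.841 and 1.45 in AZ6983 mice. In the edgeR fit the log2 fold change was 0.01 with a 95% interval of -0.49 to 0.52. Twist2, another basic helix-loop-helix factor of mesenchyme, was at 3, 3.29 and 3.64 CPM in controls and at 3.50, 3.62 and 4.10 in AZ6983 mice. A2 stood apart at the top, and the log2 fold change was 0.15 (adjusted p = 0.588 in edgeR).

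The share of all gene counts held by the 35 genes describes the list and, as other cells use several of them, not fibroblasts alone. It was 1.07% ± 0.0792 (SD, n = 6) in controls, beside 1.03% ± 0.190 (SD, n = 6) with AZ6983. The difference of the means, -0.0439 percentage points, was smaller than either SD. Controls ran from 1.002% to 1.22%, with C6 highest. The AZ6983 mice held both a high set (A1 at 1.19%, A3 at 1.18% and A2 at 1.12%) and the lowest mouse of all, A5 at 0.686%. Without A5 the difference was 0.0239. Gsn, Dcn and Postn held the most counts, and without them the shares were 0.542% ± 0.0507 in controls and 0.538% ± 0.0923 in AZ6983 mice (SD, n = 6). In bulk tissue, fewer fibroblasts and less RNA of these genes per fibroblast cannot be told apart.

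Other contents of the libraries moved with this share. In A5 the 8 smooth muscle markers were also at their lowest, 0.948% of gene counts against 1.42% to 2.03% in the other mice. The 8 brown fat markers were at their highest there (0.488%, against 0.254% to 0.445%), as were mitochondrially encoded genes (24.01%, against 9.96% to 17.0%). Mitochondrially encoded genes were lowest in A3, C6, A1 and A2, which were the 4 mice with the highest fibroblast share. With these genes left out of the denominator, the share was 1.26% ± 0.0636 in controls and 1.20% ± 0.167 in AZ6983 mice (SD, n = 6), and A5 was still the lowest at 0.903%. Per smooth muscle marker count, the 35 genes gave 0.579 to 0.704 counts in controls and 0.560 to 0.724 in AZ6983 mice, and A5 was then the highest. The part of tissue composition in single gene values was not tested.

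**Figure D3:**
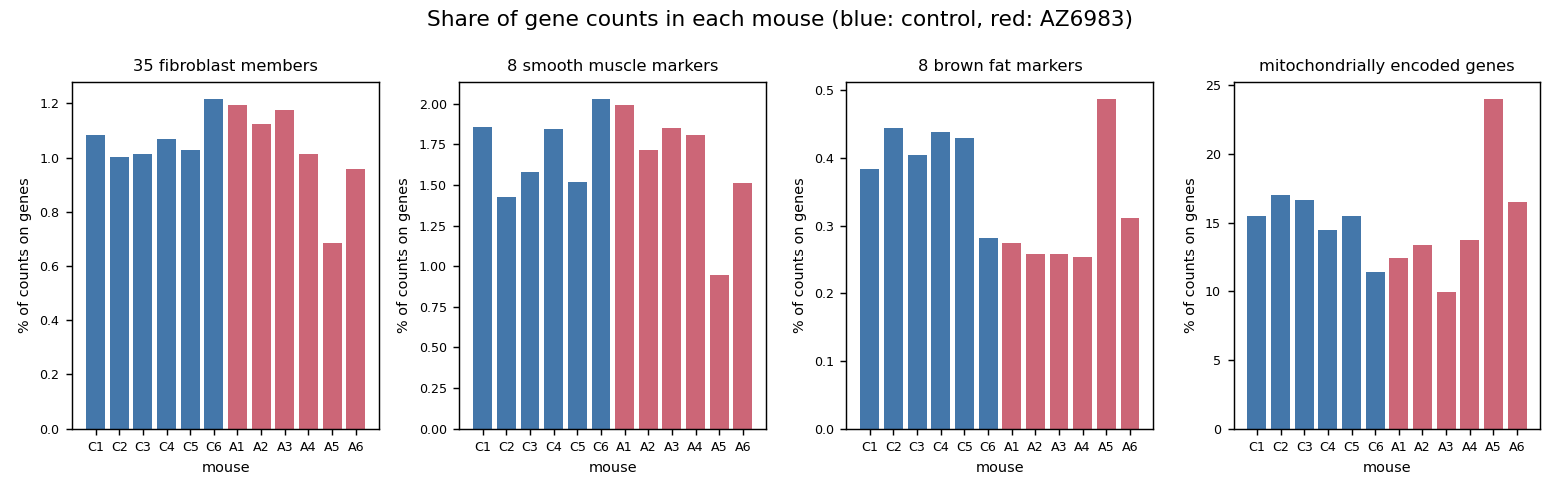
Percentage of gene counts in each mouse (blue, control; red, AZ6983; axes start at 0) held by the 35 fibroblast genes, 8 smooth muscle markers, 8 brown fat markers and the mitochondrially encoded genes. A5 is lowest in the first pair of panels (0.686% and 0.948%) and highest in the last pair (0.488% and 24.01%).

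After scaling, some of the same mice stood out gene by gene. A2 was the highest of the 12 mice for 15 of the 35 genes (42.9%, against 12.6% of all genes tested), A1 for 9 (25.7%, against 6.00%) and C6 for 6 (17.1%, against 9.55%). A5 was the lowest for 15 (42.9%, against 21.5% of all genes) and A4 for 7 (20%, against 6.71%). The 15 genes lowest in A5 included Dcn, Lum, Ogn, Aspn, Dpt, Postn, Gsn and Cd34. These extremes were mostly AZ6983 mice. Over all genes tested an AZ6983 mouse, A5, was likewise most often the lowest (21.5%) and most often the highest (18.5%). The genes are coexpressed within a tissue, so these counts are not independent.

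**Figure D4:**
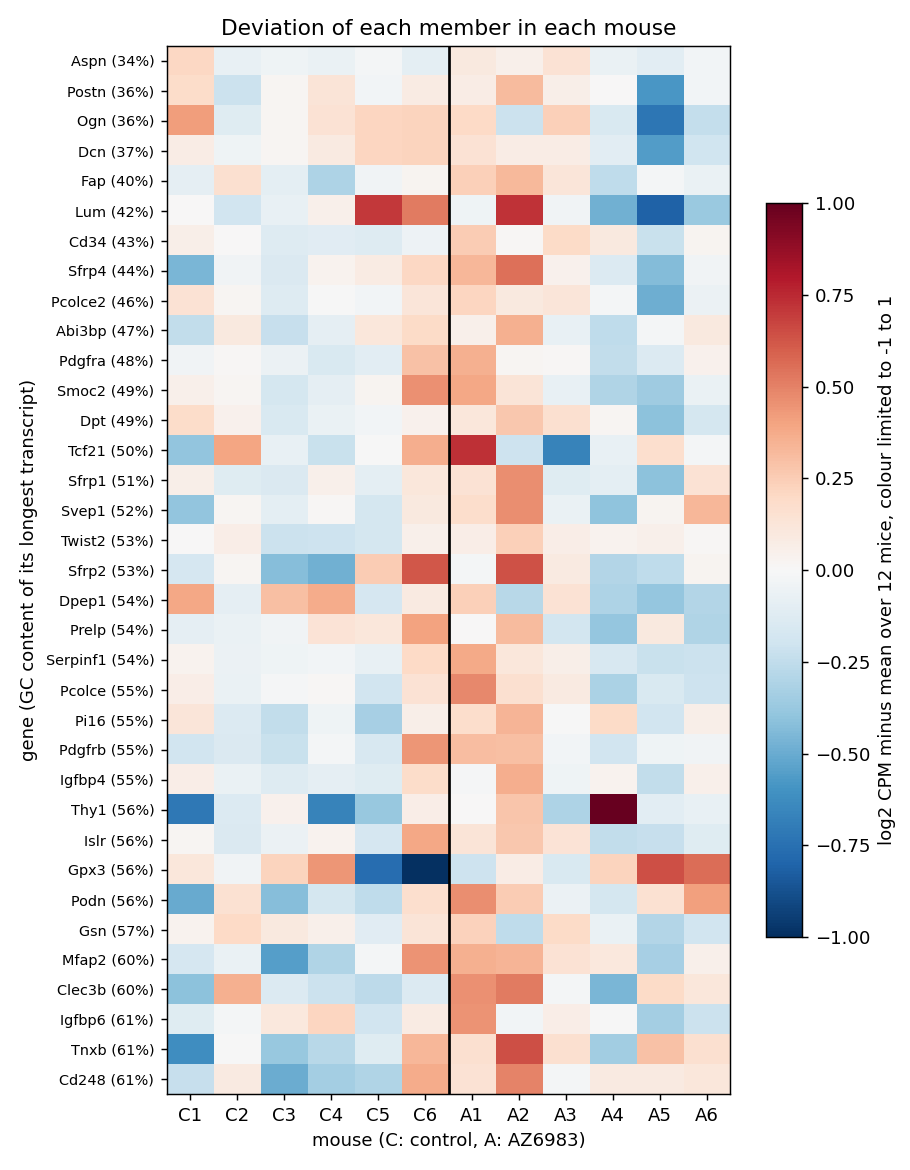
Deviation of each of the 35 genes (rows, ordered by GC content) from its mean over the 12 mice, in log2 CPM (red, higher; blue, lower; colour limited to -1 to 1), with controls left of the black line. Columns C6, A1 and A2 are mostly red, and C3, C5, A4 and A5 mostly blue (27, 27, 25 and 26 of the 35 genes below their mean). Gpx3 is the only gene with its lowest value in C6 and the only one with its highest in A5.

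Within the list the fold change went with base composition. GC content of the longest transcript ran from 34.3% (Aspn) to 61.3% (Cd248). Across the 35 genes, which are not independent, Spearman's rho between log2 fold change and GC content was 0.47, and it stayed between 0.417 and 0.515 when each mouse was left out. Over 72 other fibroblast genes it was 0.11 and over 15281 genes 0.06. The 12 genes with the lowest GC content had 6 log2 fold changes above 0 and 6 below, with a median of -0.0031. The 12 with the highest had 9 above and 3 below, with a median of 0.24. Single mice differed in this respect: rho between a mouse's deviation and GC content over the 35 genes was -0.67 in C5 and -0.45 in C1, and 0.48 in A5. Over 15281 genes this rho was -0.29 in C5, -0.03 in C1 and 0.03 in A5. With length, rho was 0.08 over the 35 genes, 0.46 over the 72 other fibroblast genes and 0.09 over 15252 genes. The part of base composition in the fold changes was not tested.

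**Figure D5:**
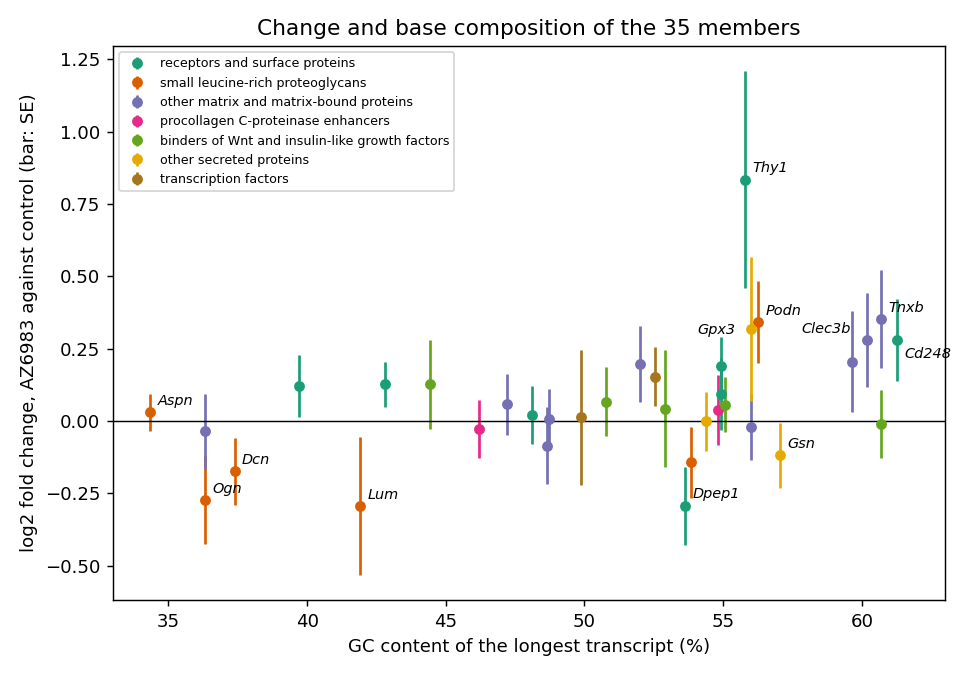
Log2 fold change of AZ6983 against control (bar, SE) against the GC content of the longest transcript, for the 35 genes coloured by role. The proteoglycans Ogn, Dcn and Lum lie at 36.3% to 41.9% GC and below 0, and Podn, Clec3b, Tnxb and Cd248 lie at 56.3% to 61.3% and above 0. Others do not follow this, such as Aspn (34.3%) above 0 and Gsn (57.1%) below 0. Of the 12 genes with the lowest GC content 6 lie above 0 and 6 below, and of the 12 with the highest 9 above and 3 below.

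A list of further genes held 75 symbols of fibroblasts and of the pathways they act in, of which 74 were in the table and 73 were tested. At a false discovery rate of 10%, 0 passed in edgeR, DESeq2 or limma-voom. At an unadjusted p under 0.05, 7 were higher in AZ6983 mice (9.59%) and 0 were lower, beside the 7.38% and 2.81% of all genes tested. The median log2 fold change was 0.12, with 54 above 0 and 19 below. The 7 were Fndc1, Gli1, Htra3, C3, Fbn1, Fbln2 and Ebf2. Fndc1, a fibronectin domain protein, was at 23.8, 32.5 and 45.9 CPM in controls and at 35.04, 47.8 and 78.2 with AZ6983, for a log2 fold change of 0.62 ± 0.2205 (SE, adjusted p = 0.45 in edgeR). Gli1, a target of hedgehog signalling and a marker of perivascular stromal cells, was at 4.80, 5.53 and 7.75 CPM in controls and at 6.07, 7.19 and 9.06 with AZ6983, for a log2 fold change of 0.37. The groups overlapped for both.

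Of the other five, the microfibril gene Fbn1 had a log2 fold change of 0.32, the matrix gene Fbln2 0.18, the serine protease Htra3 0.19, the complement component C3 0.41 and the transcription factor Ebf2 0.43. Adjusted p-values of these were 0.476 to 0.487 in edgeR. None of the 18 genes for collagens and their handling had an unadjusted p under 0.05, and Col1a1, the main chain of type I collagen, had a log2 fold change of 0.47 ± 0.235 (SE, adjusted p = 0.508 in edgeR). Without A4, Col1a1 (0.61, unadjusted p = 0.00856), Col5a1, Col14a1, Adamts2 and Bmp1 had an unadjusted p under 0.05. In the refits the share of all genes tested at this p was not counted, so their counts have no background here. The count of 7 became 15 without C6, 13 without A4 and 2 without C1, C3 or C5. It was 0 once the no-gene share of reads entered the model. In that model Gli1 was at 0.35 and Htra3 at 0.22, close to their values without the covariate, while Fndc1 was at -0.0067, C3 at -0.02 and Fbn1 at -0.03.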

How the data were processed

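Total RNA of the thoracic aorta was depleted of ribosomal RNA, and stranded libraries were read from both ends (75 bases each). The authors deposited raw counts per gene symbol, made per the labels' processing notes with CASAVA 1.8.2, STAR 2.5.2b and HTSeq 0.6.1p1 on mm10. The annotation and the strand setting of the counting are not given in the sources used here. Rows that name no gene entered neither library sizes nor tests: reads on no gene were 8.02% to 14.9% of the table per mouse, reads with more than 1 alignment 18.1% to 23.2%, and reads shared by genes 0.606% to 0.698%. All columns mapped to a mouse.

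Groups came from the sample titles. Counts were tested in R 4.3.3 with edgeR 4.0.16 (TMM, filterByExpr, quasi-likelihood, no covariate, Benjamini-Hochberg adjustment over 15857 genes, 10% FDR). DESeq2 1.42.0, limma-voom (limma 3.58.1), other scalings and filters, the no-gene share of reads as a covariate and each mouse left out were alternatives. Fits without A4 and A5 together, and DESeq2 without A4 or A5, were added after seeing the data. Steps were tested on simulated data. A standard error was obtained from the fold change (log2) and the F statistic, as their size over the root of F. Lengths, positions and GC content are of GENCODE M21 by symbol. Log2 CPM used a prior count of 2.

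The 35 genes, the roles, the list of 75 further symbols and the 12 lists of 8 cell type markers were chosen with earlier results of these data known. Genes were described singly where they define adventitial fibroblasts (Pdgfra, Dcn, Lum, Dpt, Pi16, Cd34, Tcf21, Thy1), had an unadjusted p under 0.05 or were among the 3 just above it, were among the 5 largest changes or the 5 highest levels per length, or had 1 mouse apart by Dixon's test. Of the further genes, those with an unadjusted p under 0.05 were named, and Col1a1 was chosen after its value was seen.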

Additional observations from a re-analysis of the deposited data

Results flagged for a closer look

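In 8 of the 70 groups of 6 mice (35 genes in each treatment group), 1 mouse stood apart from the other 5 on the log2 CPM scale by Dixon's test. Chance flags about 1 in 20 groups, or 3.5 of 70, and the genes are coexpressed. C6 was high for Pdgfrb at 7.995, with the other controls at 7.33 to 7.54. It was also high for Smoc2 at 7.549, with the others at 6.92 to 7.14, and for Islr at 7.092, with the others at 6.54 to 6.74. C1 was high for Aspn at 6.888, with the other controls at 6.58 to 6.66, and C2 for Clec3b at 5.643, with the others at 4.88 to 5.15.

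Among the AZ6983 mice, A4 was high for Thy1 at 6.374, with the other 5 at 4.08 to 4.66. A2 was high for Cd248 at 5.277, with the others at 4.76 to 4.93, and for Twist2 at 2.06, with the others at 1.84 to 1.89. Each of the 8 values was the highest of its group.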

How the results depend on the processing

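No member passed a false discovery rate of 10% in the main test or in any of its 23 alternatives. Of 483 alternative values of the 22 genes described singly, 438 kept their direction, 45 in 10 genes reversed and 0 passed the threshold. The counts at an unadjusted p under 0.05 were less stable. The share of all genes tested at this p was counted only in the main fit, so the other counts have no background here. Members higher in AZ6983 mice (2) became 0 with the no-gene share of reads as a covariate, 5 without A4 and A5, 4 with DESeq2 without A4, 4 with DESeq2 without A5, and 0 to 5 with 1 mouse left out. They were 0 without C4, C5 or A2, and 5 without C6 (Pdgfrb, Thy1, Cd248, Podn and Tnxb). Without A4 they were Podn, Tnxb, Svep1 and Clec3b, and without A5 Cd34, Thy1 and Pi16. Members lower (1) became 0 with a mean of at least 50 counts, with the covariate, without A4 and A5, and with DESeq2 without A4 or without A5, and 0 to 2 with 1 mouse left out (Dpep1 and Ogn without A1 or A3, Lum and Prelp without A2).

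Among the further fibroblast genes, 1 (Mfap5, log2 fold change 0.27, adjusted p = 0.0589) passed in DESeq2 without A5. Their count higher (7) became 4 with limma-voom, 4 with upper quartile scaling, 3 without a filter, 0 with the covariate, 19 without A4 and A5, 16 with DESeq2 without A4, 13 with DESeq2 without A5, and 2 to 15 with 1 mouse left out. Their count lower (0) became 1 with the covariate and 0 to 1 with 1 mouse left out. The cause was not tested, and as for the members these counts have no share of all genes tested beside them.

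Reversed log2 fold changes are given with their settings. With the covariate Dpt was -0.00165, Tcf21 -0.0509, Dpep1 0.0332, Tnxb -0.0236, Clec3b -0.0134 and Postn 0.00129. Dpt was -0.00298 with DESeq2, -0.00929 with limma-voom, -0.00064 with upper quartile scaling, -0.0143 without a filter and -0.00507 with DESeq2 without A4. Tcf21 was -0.0193 with limma-voom, -0.00382 without a filter and -0.0221 with DESeq2 without A5. Without A4 and A5, Postn was 0.0618, Smoc2 0.0322 and Islr 0.0724. DESeq2 without A5 gave 0.0451 for Postn and 0.0114 for Islr, and without A4 0.0152 for Islr. With 1 mouse left out, Pdgfra ran from -0.0578 to 0.0865, Dpt from -0.0657 to 0.0587, Tcf21 from -0.173 to 0.118, Postn from -0.125 to 0.0368, Aspn from -0.000107 to 0.0769, Smoc2 from -0.185 to 0.00755 and Islr from -0.0944 to 0.0628.

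With 1 mouse left out, the median log2 fold change of the members ran from -0.00401 (without A2) to 0.0937 (without C6). It was 0.12 without A4 and A5, and -0.00013 with the covariate. The difference in their share of gene counts ran, with 1 mouse left out, from -0.0778 (without A1) to 0.0239 (without A5). Each moved by less than the spread between mice. No paired analysis was possible because no mouse number is shared by both groups and no litter or cage is given. Controls have the library numbers 3 to 7 and 12, whose meaning is not given, and the number was not used as a covariate.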

Other observations

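Of the 12 lists of cell type markers, 0 genes passed a false discovery rate of 10% in edgeR, as did 0 of all 15857 genes tested. The study's own DESeq2 list at 10% includes Ltf, Ngp, Csf3r, Camp and Vwf as higher, and Col2a1 and S100b as lower. The neutrophil markers, granule and surface proteins such as S100a8 and Ltf, were higher in AZ6983 mice at an unadjusted p under 0.05 for 8 of 8 genes. They summed to 0.00244% to 0.00629% of gene counts in controls and 0.00410% to 0.0259% in AZ6983 mice. Endothelial markers gave 2 higher and 0 lower of 8, white fat 1 higher and 1 lower, mesothelium 1 higher, smooth muscle, brown fat and Schwann cell 1 lower each, cartilage 2 lower of 6 tested, and macrophage, skeletal muscle and plasma and B cell markers 0. Of all genes tested, 7.38% were higher and 2.81% lower at this p. The mesothelial markers summed to more in A4 than in any other mouse through Krt8 and Krt18, 2 keratins of epithelia in general (33.4 and 47.0 CPM, against at most 2.38 and 7.69 elsewhere). Upk3b was at 10.8 CPM in A4 and 15.7 in C4, and Msln at 7.34 in A4 and 7.19 in A5.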
